A study of Mus musculus with 92 samples.

Results

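Fgf21 and the genes through which it acts were followed in mouse liver: the hormone gene Fgf21, its co-receptor Klb and the receptor genes Fgfr1, Fgfr2, Fgfr3 and Fgfr4. The 6 genes were chosen by name, out of 17275 genes with usable count lines, and all 6 passed the filter on low counts. The livers came from fasted HET3 mice, a genetically heterogeneous cross, and RNA was sequenced after polyA selection with strand marked. The comparisons from counts use females in 6 groups: Control, Low Amino Acid (every amino acid reduced) and Low Isoleucine (isoleucine alone reduced), each killed at 6 or 24 months of age. There were 8 livers per group, except for 7 aged Low Amino Acid and 7 young Low Isoleucine livers, which makes 46. By the labels the diets began at 9 weeks in the animals killed at 6 months and at 6 months in those killed at 24. The series text instead gives 13 weeks on diet for both, so the time on diet is uncertain, and age, starting age and time on diet cannot be told apart. All animals, controls included, were fasted for 16 hours and kept at about 22 °C. Nothing in the labels names litters or cages, so the p-values measure the spread between these livers. The titles of 19 livers carry 1 of 8 numbers shared with another liver, always of the same group, and do not say what the number marks. If it marks a shared source such as a cage, p-values over livers are too small.

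FGF21 is a hormone secreted mainly by liver on fasting and when protein or essential amino acids run short. It binds beta-Klotho, the product of Klb, and signals through FGF receptors, chiefly FGFR1, in fat and brain, while liver itself is rich in beta-Klotho and FGFR4, the pair that receives the gut hormone FGF15 and restrains bile acid synthesis. In liver, Fgf21 transcription is raised by PPARalpha and CREB3L3, the fasting regulators, and by ATF4, the factor that responds to amino acid shortage.

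Fgf21 lies on chromosome 7 of GRCm38, at 45613886 to 45615490 on the minus strand. The 250 bases before its start in RefSeq (GRCm38.p6, chr7:45615491-45615740, minus strand) are shown because they hold a match to the amino acid response element that ATF4 binds. Capitals mark the matches to that element and to a TATA box.
Fgf21 upstream: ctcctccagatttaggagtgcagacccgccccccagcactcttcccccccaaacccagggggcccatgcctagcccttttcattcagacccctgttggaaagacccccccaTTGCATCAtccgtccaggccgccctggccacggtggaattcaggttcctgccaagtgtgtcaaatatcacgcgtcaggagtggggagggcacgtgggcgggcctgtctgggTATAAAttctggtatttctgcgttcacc
The amino acid response motif TGATGNAA, searched on both strands, matched on the opposite strand 139 bases before the start, and was found in 3.45% of 32851 such windows. TATAAA matched 28 bases before the start and was in 12.4% of the windows. A direct repeat of AGGNCA with 1 base between, the kind of site PPARalpha binds, had no match in these letters and was in 0.338% of the windows. None of the 3 motifs, which do not overlap each other here, was matched in the windows of Klb, Fgfr2, Fgfr3 or Fgfr4. Fgfr1 was not matched to a window.

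Klb (chromosome 5, 65348314 to 65384007), Fgfr3 (chromosome 5, 33721674 to 33737068), Fgfr1 (chromosome 8, 25513654 to 25575718) and Fgfr4 (chromosome 13, 55152640 to 55168759) lie on the plus strand. Fgfr2 is on the minus strand of chromosome 7, and its annotated span (130162451 to 133123350) covers 29 other genes of the table on both strands. Spans were compared whole, introns included, and overlap of exons was not examined. The libraries mark strand, but the sources used here do not say whether the counting used it. Where exons overlap, reads of Fgfr2 and of genes inside that span may not all be told apart.

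Library totals had a median of 22.6 M estimated counts (M for 1000000), from 7.82 to 27.6 M. A library labelled 6-month Low Isoleucine (replicate 3) was left out, since it held 47.9 CPM (counts per 1000000 of the TMM-scaled total) of the Y-linked gene Kdm5d, which was at most 0.569 CPM in the other 46. Immune and acute phase genes were higher in aged livers, in most of the listed genes on Control and in fewer on the restricted diets. All 7 neutrophil genes, all 6 measured lymphocyte genes, 6 of 8 Kupffer cell and macrophage genes and 9 of 10 acute phase genes were higher in 24-month than in 6-month controls (adjusted p under 0.05, edgeR's quasi-likelihood test, used throughout for counts). That comparison called 28% of 12617 genes. With age on Low Isoleucine 6 of 6 lymphocyte, 2 of 8 Kupffer cell and macrophage, 1 of 7 neutrophil and 0 of 10 acute phase genes rose, and on Low Amino Acid 4 of 7 neutrophil and 5 of 10 acute phase genes and 0 of the other lists. Of all genes, 7.34% were called with age on Low Isoleucine and 1.61% on Low Amino Acid. Against aged controls 0 genes of these 4 lists passed with Low Amino Acid, a comparison that called just 0.745% of all genes. The Low Isoleucine livers had 3 of 7 neutrophil and 7 of 10 acute phase genes lower than aged controls. That comparison called 6.48% of all genes. Summed CPM of the acute phase list ran from 18864 to 167643 in 24-month controls and from 14038 to 22528 in 6-month controls. The defining hepatocyte genes were high in every library, at a summed 52203 to 161337 CPM over 4 genes. Of 9 pancreatic acinar genes, 8 were under 1 CPM in every library, which matters here because pancreas also makes FGF21. The other gene was not, and the summed CPM of the 9 reached 27.3 in a 6-month control. Of 4 measured adipocyte genes, 2, Plin1 and Lep, were under 1 CPM throughout, and the others were not. The summed CPM of the 4 reached 22.4 in a 24-month Low Isoleucine liver. In whole liver, fewer cells of a type and less RNA per cell cannot be told apart.

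Per kilobase of exon, Fgf21 and Klb stood highest and Fgfr1 lowest. Over the 46 livers Fgf21 averaged 21.6 ± 20.3 CPM per kb (SD, n = 46) and Klb 20.85 ± 3.997 (SD, n = 46). These neighbours did not separate, since Fgf21 was the higher of the pair in 19 of 46 livers. Next came Fgfr4 at 10.8 ± 2.65 CPM per kb (SD, n = 46), below Klb in 45 of 46 livers. Fgfr2 followed at 6.77 ± 1.21, under Fgfr4 in 42 of 46, and Fgfr3 at 4.45 ± 0.960, under Fgfr2 in 41 of 46 (SD, n = 46 each). Fgfr1 had 0.463 ± 0.179 CPM per kb (SD, n = 46) and was below Fgfr3 in every liver.

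The hormone gene showed no diet difference that passed the test and a wide spread among aged controls. In 6-month controls Fgf21 ran from 6.96 to 27.9 CPM with a median of 14 (n = 8). On Low Amino Acid at that age the lowest, median and highest values were 7.07, 16.3 and 28.1 CPM (n = 8), and on Low Isoleucine 0.756, 19.8 and 27.6 CPM (n = 7). The 3 groups covered the same range but for the single liver at 0.756 CPM. Fitted log2 changes against Control were -0.04 ± 0.50 for Low Amino Acid (SE, adjusted p = 0.988) and 0.10 ± 0.52 for Low Isoleucine (SE, adjusted p = 0.975). Their 95% intervals, -1.05 to 0.98 and -0.95 to 1.15, hold a 2-fold fall in the first case and a 2-fold rise in the second, and changes of nearly that size the other way.

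At 24 months the control livers held 12.5, 60.4, 125, 6.94, 24.1, 16.4, 5.57 and 10.2 CPM of Fgf21 in replicates 1 to 8. Replicates 2 and 3 were above every liver of all the other groups, whose highest was 41.1 CPM, while replicates 4 and 7 were below every 6-month control. Aged Low Amino Acid livers ran from 9.32 to 34.6 CPM with a median of 11.8 (n = 7), and aged Low Isoleucine livers from 8.82 to 41.1 with a median of 20.7 (n = 8). The mean of the aged controls was 32.7 ± 41.4 CPM (SD, n = 8) against 16.4 ± 8.03 in 6-month controls (SD, n = 8), yet the medians were 14.5 and 14. The fitted difference between the ages on Control was 0.99 ± 0.51 (SE, adjusted p = 0.139) and fell to 0.24 without replicate 3. Diet differences at 24 months were -0.97 ± 0.53 for Low Amino Acid (SE, adjusted p = 0.341) and -0.50 ± 0.50 for Low Isoleucine (SE, adjusted p = 0.592). Without replicate 3 of the controls they were -0.23 and 0.24. That liver also had the most Asns of the aged controls, 27.6 CPM against 0.162 to 3.91 in the others. Replicate 2, next in Fgf21 at 60.4 CPM, had the least Asns of the group, 0.162 CPM. Asns encodes asparagine synthetase, an ATF4 target.

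**Figure D1:**
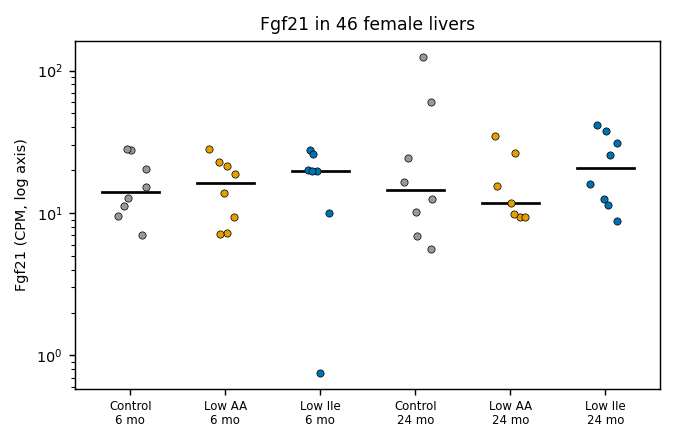
Fgf21 in CPM on a log axis, 1 point per female liver, by diet and age at killing, with bars at group medians (Low AA, Low Amino Acid; Low Ile, Low Isoleucine). Medians lie between 11.8 and 20.7 CPM, with 2 aged controls at 60.4 and 125 CPM and a 6-month Low Isoleucine liver at 0.756 CPM.

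The co-receptor was lower in aged controls than in young ones, and this was the only call among the 6 genes from counts. Klb values of the 6-month controls ran from 80.9 to 114.6 CPM with a median of 97.7 (n = 8). In 24-month controls they were 52.3, 75.5, 122.6, 54.4, 60.0, 71.5, 78.1 and 90.02 CPM in replicates 1 to 8. Of these 8 livers, 6 lay below the lowest young control and 1 above the highest, so the groups overlapped. Klb fell by 24.1% (log2 change -0.40 ± 0.13, SE, adjusted p = 0.0201) in a comparison that called 28% of 12617 genes. Without the 3 aged controls highest in acute phase or neutrophil genes (replicates 1, 4 and 5, together with Low Amino Acid replicates 2 and 4), the difference was -0.19 ± 0.13 (SE, adjusted p = 0.323) and no longer passed. Without replicate 1 of the aged controls alone it was -0.34 (adjusted p = 0.0593). The call was also lost, at a like size, when only the compared groups were fitted (-0.40, adjusted p = 0.0751) and when livers with the same title number were summed (-0.42, adjusted p = 0.0670).

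Of the 5 livers highest in acute phase or neutrophil genes, 4 had 52.3 to 70.2 CPM of Klb, and the other, aged Low Amino Acid replicate 2 with a neutrophil mean of 4.24 log2 CPM, had 86.5. Of the aged controls, replicates 1 and 5 had list means of 12.02 and 12.7 log2 CPM for the acute phase genes, with Klb at 52.3 and 60.0 CPM. Replicates 1 and 4 had list means of 4.72 and 4.95 log2 CPM for the neutrophil genes, with Klb at 52.3 and 54.4. Replicates 2 and 6, whose acute phase means of 8.38 and 8.28 lay within the 7.71 to 8.77 of 6-month controls, held 75.5 and 71.5 CPM. Replicates 3 and 8 had means of 10.2 and 10.9 and the most Klb of the group, 122.6 and 90.02 CPM. In the 24-month Low Amino Acid group, replicate 4 had the highest acute phase mean, 12.2, and the least Klb, 70.2 CPM. In the 24-month Low Isoleucine group the least Klb, 61.0 CPM, was in replicate 7, whose acute phase mean was 8.81. The part of inflammation in the Klb difference was not tested. The fit without the 5 livers cannot serve as a test. It left out replicates 1, 4 and 5, the aged controls with the least Klb, which lessens the fall whatever its cause.

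**Figure D2:**
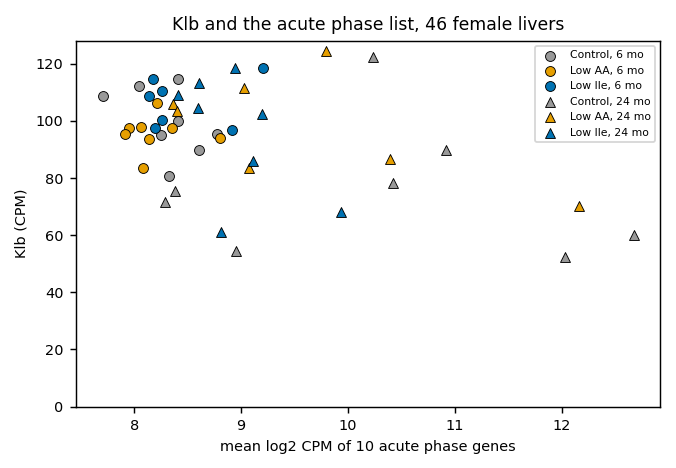
Klb in CPM against the mean log2 CPM of 10 acute phase genes, 1 point per female liver, circles for 6 months and triangles for 24 months. The 3 livers with means of 12.02, 12.2 and 12.7 have 52.3, 70.2 and 60.0 CPM of Klb, while livers with means under 9 run from 54.4 to 118.6 CPM.

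On the restricted diets at 24 months Klb stood closer to its level at 6 months. Low Amino Acid livers ran from 70.2 to 124.5 CPM with a median of 103.6 (n = 7), and Low Isoleucine livers from 61.0 to 118.6 with a median of 103.7 (n = 8). Against aged controls Klb differed by 0.37 ± 0.14 on Low Amino Acid (log2, SE, adjusted p = 0.153) and by 0.34 ± 0.13 on Low Isoleucine (SE, adjusted p = 0.110). Neither passed. When libraries that carry no weight in the authors' female table were left out, the values were 0.48 (adjusted p = 0.0219) and 0.42 (adjusted p = 0.0284). Left out were aged Low Amino Acid replicates 2 and 4 (Klb 86.5 and 70.2 CPM) and aged Low Isoleucine replicates 2 and 5 (85.9 and 68.1 CPM). No aged control was among them. These livers lay below their group medians, so leaving them out raises both differences whatever their cause. Without replicate 3 of the aged controls they were 0.51 (adjusted p = 0.0400) and 0.47 (adjusted p = 0.0170). That liver had the most Klb of the aged controls, 122.6 CPM. Leaving it out raises both differences whatever their cause, so this fit cannot serve as a test either. At 6 months the Klb median was 96.5 CPM with Low Amino Acid and 108.7 CPM with Low Isoleucine, with log2 changes of -0.06 ± 0.13 (SE, adjusted p = 0.922) and 0.10 ± 0.14 (SE, adjusted p = 0.880). The Low Amino Acid effect at 24 months exceeded that at 6 months by 0.43 ± 0.19 on the log2 scale (SE, adjusted p = 0.482), which did not pass.

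Fgfr1, the main partner of beta-Klotho in fat and brain, was barely present. Group medians lay between 3.48 CPM in both restricted groups at 24 months and 4.84 CPM on Low Amino Acid at 6 months. Aged controls spread from 2.11 to 11.6 CPM (n = 8), against 3.45 to 5.66 in 6-month controls (n = 8), and their groups overlapped. Fgfr1 did not pass in any comparison, the lowest adjusted p being 0.312, for aged Low Amino Acid livers against aged controls (-0.49 ± 0.25, log2, SE).

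Fgfr2, another member of the receptor family, held a narrow range. Its group medians ran from 60.6 CPM in aged Low Amino Acid livers to 77.4 CPM in aged Low Isoleucine livers. Single livers ran from 35.1 to 100.5 CPM, and both extremes were 24-month controls. No comparison passed. Of the 9 differences between groups the largest was between the restricted diets at 24 months, where the Low Isoleucine value was higher by 0.21 ± 0.14 (log2, SE, adjusted p = 0.471).

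Fgfr3 had the smallest unadjusted p-values for diet among the 6 genes, with differences that did not pass the correction over all genes. At 6 months the lowest, median and highest values were 26.3, 36.5 and 40.8 CPM on Control (n = 8). They were 26.9, 29.4 and 41.7 CPM on Low Amino Acid (n = 8) and 21.2, 24.3 and 38.1 CPM on Low Isoleucine (n = 7). Of the 7 Low Isoleucine livers, 5 lay below every 6-month control, and the fitted difference was -0.41 ± 0.14 (log2, SE, unadjusted p = 0.00489, adjusted p = 0.250). At 24 months the same 3 values were 25.1, 28.4 and 36.0 CPM on Control (n = 8), 27.6, 39.7 and 46.02 on Low Amino Acid (n = 7) and 17.3, 28.7 and 43.0 on Low Isoleucine (n = 8). Of the 7 aged Low Amino Acid livers, 5 lay above every aged control. There Fgfr3 was 0.40 ± 0.14 higher on Low Amino Acid than on Control (SE, unadjusted p = 0.00641, adjusted p = 0.141) and the Low Isoleucine livers were below the Low Amino Acid livers (-0.41 ± 0.14, SE, unadjusted p = 0.00484, adjusted p = 0.122). Under limma's voom with quality weights, 2 of these passed: -0.47 for Low Isoleucine against Control at 6 months (adjusted p = 0.0391) and -0.43 between the restricted diets at 24 months (adjusted p = 0.0280). The Low Amino Acid effect on Fgfr3 differed between the ages by 0.57 ± 0.19 (SE, unadjusted p = 0.00470, adjusted p = 0.482).

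Fgfr4, the main liver receptor for FGF15, had medians of 35.8, 35.5 and 36.6 CPM at 6 months, for Control and then the amino acid and isoleucine diets, and of 39.7, 44.3 and 43.5 CPM at 24 months. Its values ran from 18.9 to 53.6 CPM in the 23 younger livers and from 24.9 to 61.9 CPM in the 23 older ones. The differences between 24 and 6 months were 0.33 ± 0.18 on Control (log2, SE, adjusted p = 0.152), 0.17 ± 0.18 on Low Amino Acid (SE, adjusted p = 0.716) and 0.26 ± 0.18 on Low Isoleucine (SE, adjusted p = 0.389). None passed, and the diet differences in Fgfr4 were within 0.11 on the log2 scale in either direction.

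**Figure D3:**
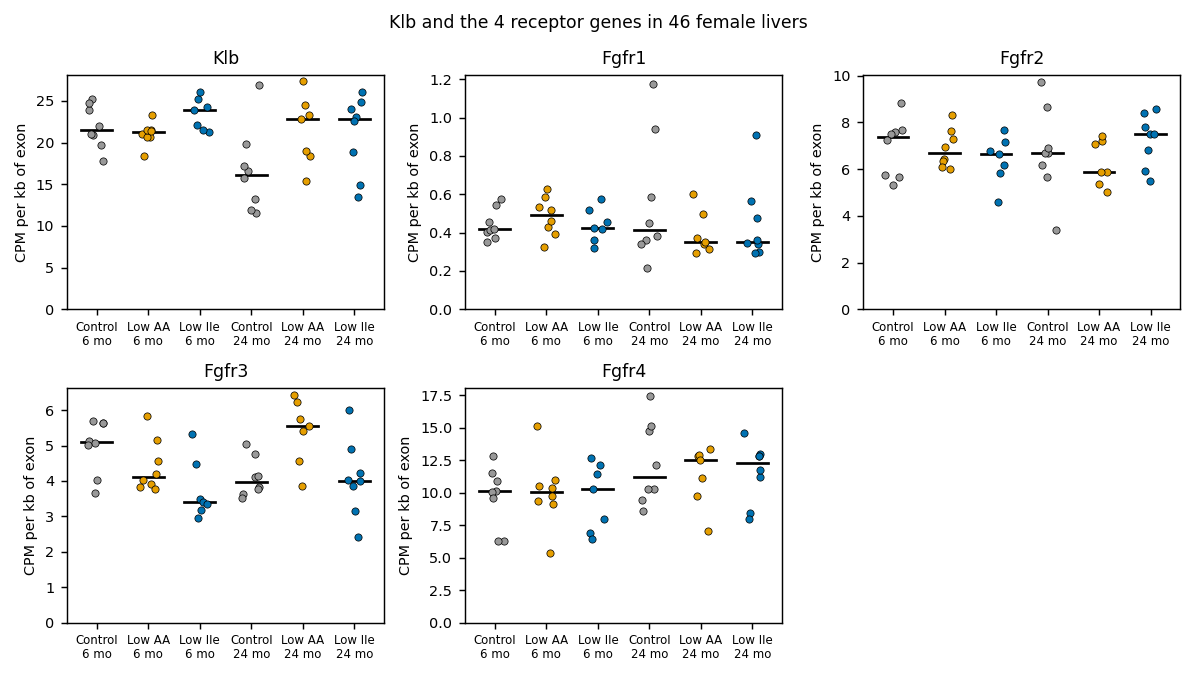
CPM per kb of exon of Klb and the 4 receptor genes, 1 point per female liver, by diet and age, with bars at group medians and axes from 0. Each gene has its own scale. By median Klb is lowest in aged controls and Fgfr3 is highest in aged Low Amino Acid livers. Fgfr1 runs only from 0.213 to 1.18 CPM per kb.

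The whole set of 6 genes can be read against the share of genes that each comparison called. At 6 months, 0 of 6 passed on Low Amino Acid, where edgeR called 0% of 12617 genes, 1023 had an unadjusted p under 0.05, DESeq2 called 8 and limma's voom 52. On Low Isoleucine 0 of 6 passed and 0.0238% were called, and between the restricted diets 0 of 6 and 0.0159%. At 24 months 0 of 6 passed on Low Amino Acid (0.745% called), on Low Isoleucine (6.48% called) and between the diets (1.25% called). Between the ages 1 of 6 passed on Control (28% called), 0 of 6 on Low Amino Acid (1.61% called) and 0 of 6 on Low Isoleucine (7.34% called). The difference of a diet's effect between the ages was called in 0% of genes for either diet, with 1298 genes at an unadjusted p under 0.05 for Low Amino Acid and 1072 for Low Isoleucine. DESeq2 called 0 and 25 genes there, and 521 were called for Low Amino Acid when libraries that carry no weight in the authors' female table were left out. All 54 pairs of groups, 9 for each gene, overlapped in their values. Overlap was not counted over all genes, so this does not set the 6 genes apart.

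**Figure D4:**
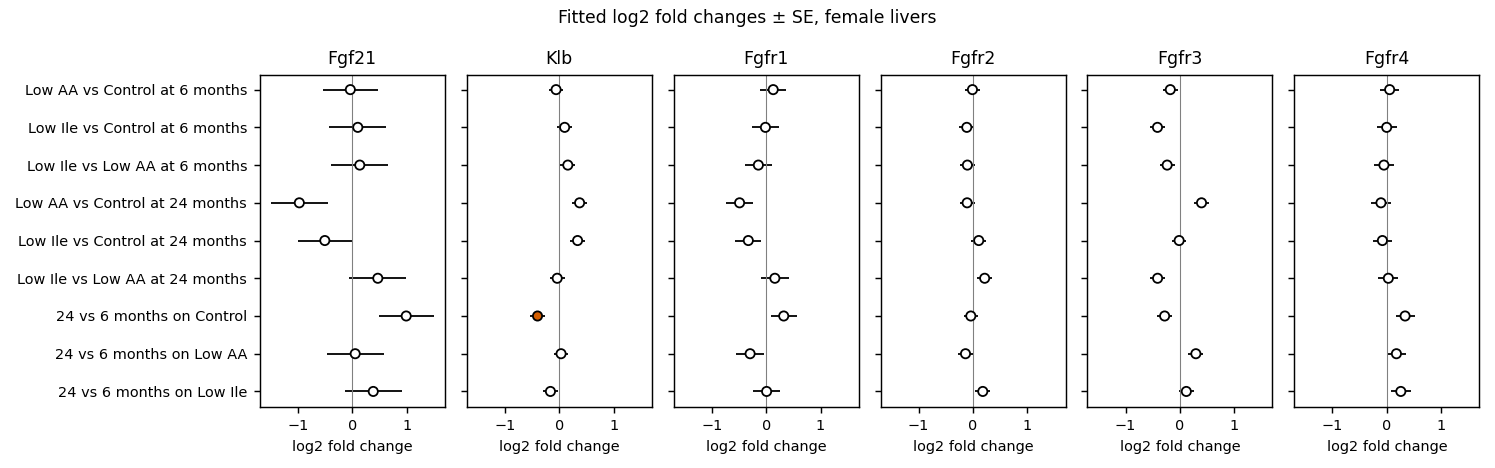
Fitted log2 fold changes with SE (horizontal bars) of the 6 genes in 9 comparisons of female livers, in orange where the adjusted p is under 0.05. Only Klb between the ages on Control, at -0.40, is orange, and the bars are widest for Fgf21.

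Of 13 regulators of Fgf21 transcription, 2 rose and 4 fell with age on Control, where 28% of all genes were called, with a median log2 change of -0.13 against 0.03 over all genes. Nfil3, a repressor of the clock system, rose by 1.34 ± 0.30 (SE, adjusted p = 0.00119) and Atf4 by 0.34 ± 0.12 (SE, adjusted p = 0.0333). Ppara, the nuclear receptor that switches on fasting genes, went from 392 ± 57.9 to 250 ± 71.6 CPM (SD, n = 8 each), a change of -0.64 ± 0.16 (SE, adjusted p = 0.00247). Its coactivator Ppargc1a changed by -0.77 ± 0.23 (SE, adjusted p = 0.0100) and Thrb, the thyroid hormone receptor, by -0.50 ± 0.10 (SE, adjusted p = 0.000324). Without the livers high in acute phase or neutrophil genes, 1 rose and 4 fell, against 1294 and 876 of all 12642 genes. Atf4 then stood at 0.18 (adjusted p = 0.250), and it also lost its call without replicate 1, 3 or 5 of the aged controls or replicate 5, 6 or 7 of the young ones, at 0.20 to 0.40 over all livers left out in turn. On the restricted diets at 24 months the regulators that passed were a single gene, Atf4, lower by 0.64 on Low Amino Acid (-0.64 ± 0.13, SE, adjusted p = 0.0166) and by 0.44 on Low Isoleucine (-0.44 ± 0.12, SE, adjusted p = 0.0208). The second was -0.29 (adjusted p = 0.0867) without the livers high in those lists, and was lost without replicate 1 or 5 of the aged controls. Between the ages on Low Isoleucine, where 7.34% of all genes were called, 2 of 13 fell, Thrb (-0.32) and Rxra (-0.30). Those calls were lost in 7 and 11 of the 46 fits that leave out a liver. Between the ages on Low Amino Acid 0 of 13 passed. At 6 months 0 of 13 passed on either diet.

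ATF4 targets of the stress response, genes that share an input with Fgf21, moved in both directions. With age on Control 6 of 14 rose and 2 fell, where 28% of all genes were called. The median was 0.51 against 0.03 over all genes. Asns rose by 3.81 ± 0.90 (SE, adjusted p = 0.00186), from 0.301 ± 0.358 to 4.32 ± 9.50 CPM (SD, n = 8 each). Without replicate 3 of the aged controls that change was 1.69 and did not pass. Phgdh and Mthfd2, of serine and folate metabolism, rose by 3.64 ± 0.70 (SE, adjusted p = 0.000341) and 2.35 ± 0.49 (SE, adjusted p = 0.000681). Trib3, a feedback inhibitor of ATF4, fell (-1.50 ± 0.28, SE, adjusted p = 0.000300) and so did Cth, which makes cysteine (-0.75 ± 0.27, SE, adjusted p = 0.0306). The call for Cth was lost without replicate 1, 3 or 4 of the aged controls or replicate 3 or 7 of the young ones. Without the livers high in inflammatory lists, 4 rose and 1 fell, against 1294 and 876 of all 12642 genes. On Low Isoleucine at 24 months 1 of 14 rose and 2 fell, where 6.48% of all genes were called. The median was -0.19 against -0.02 over all genes. Chac1, a glutathione-degrading enzyme, went from 8.68 ± 8.89 CPM on Control to 1.26 ± 0.656 CPM (SD, n = 8 each; -2.82 ± 0.60, SE, adjusted p = 0.00321). Asns there was at -2.80 ± 0.85 (SE, adjusted p = 0.0382) and at -0.67 without replicate 3 of the controls. That call was lost in 8 of the 46 fits that leave out a liver. The gene that rose, Cth, was at 0.86 ± 0.27 (SE, adjusted p = 0.0413), lost in 9 of those fits and without the livers high in inflammatory lists (0.64, adjusted p = 0.197). On Low Amino Acid 0 of 14 passed at either age. Without the livers high in inflammatory lists 2 fell at 24 months, against 54 of all 12642 genes. Between the ages 0 of 14 passed on Low Amino Acid. On Low Isoleucine, where 7.34% of all genes were called, 1 of 14, Phgdh, rose (2.97 ± 0.76, SE, adjusted p = 0.0150). That rise was 1.90 and lost without replicate 2 of the aged Low Isoleucine group.

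Of 11 measured PPARalpha targets that fasting induces together with Fgf21, 6 fell and 0 rose with age on Control. That comparison called 28% of all genes, and the list's median was -0.44 against 0.03 over all genes. Cyp4a14, a fatty acid hydroxylase, went from 4766 ± 1309 to 1774 ± 1369 CPM (SD, n = 8 each; -1.43 ± 0.41, SE, adjusted p = 0.00822). Ehhadh, of peroxisomal beta-oxidation, went from 1838 ± 375 to 785 ± 510 CPM (SD, n = 8 each; -1.23 ± 0.33, SE, adjusted p = 0.00551). Vnn1, a pantetheinase, changed by -0.99 ± 0.28 (SE, adjusted p = 0.00795). Without the livers high in acute phase or neutrophil genes 3 fell, against 876 of all 12642 genes, and Vnn1 was at -0.78 (adjusted p = 0.0949). On Low Isoleucine at 24 months 2 of 11 rose, Cyp4a14 to 5853 ± 2640 CPM (SD, n = 8; 1.72 ± 0.41, SE, adjusted p = 0.00886) and Ehhadh to 1809 ± 870 CPM (SD, n = 8; 1.20 ± 0.33, SE, adjusted p = 0.0211). Of all genes, 6.48% were called there. Ehhadh was at 0.89 (adjusted p = 0.0818) without those livers, and lost its call without replicate 1 of the controls or replicate 3 or 8 of the Low Isoleucine group. In the 3 comparisons at 6 months, and at 24 months on Low Amino Acid and between the restricted diets, 0 of 11 passed, as between the ages on Low Amino Acid. In these same comparisons Fgf21 was at 0.99 between the ages on Control and -0.50 on Low Isoleucine at 24 months, with neither past the test. Without replicate 3 of the aged controls both were at 0.24.

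Downstream of the receptors, 3 of 15 feedback and early response genes fell with age on Control and 0 rose, a smaller share than the 28% of all genes called there, with a median of 0.03, that of all genes. The 3 were Dusp6, a phosphatase of ERK (-0.73 ± 0.21, SE, adjusted p = 0.00877), and the pathway inhibitors Spred2 (-0.41 ± 0.10, SE, adjusted p = 0.00293) and Spred1 (-0.39 ± 0.12, SE, adjusted p = 0.0142). Without the livers high in inflammatory lists 1 of 15, Spred2, fell (-0.46, adjusted p = 0.00833), with Dusp6 at -0.47 (adjusted p = 0.127) and Spred1 at -0.37 (adjusted p = 0.0512). Of all 12642 genes 876 fell in that fit. On Low Isoleucine at 24 months 1 of 15 rose, close to the 6.48% of all genes called, and it was Spred2 (0.54 ± 0.10, SE, adjusted p = 0.00117), from 10.4 ± 1.37 to 15.1 ± 1.78 CPM (SD, n = 8 each). The list's median was 0.31 against -0.02, and 0.10 without the livers high in inflammatory lists. In the other comparisons 0 of 15 passed. Among 13 measured adaptors and kinases of the cascade, 1 rose and 3 fell with age on Control, close to the 28% of all genes called. Grb2, the adaptor that recruits SOS, rose by 0.35 ± 0.09 (SE, adjusted p = 0.00299). Plcg1, Gab1 and Sos1 changed by -0.53 ± 0.08 (adjusted p = 3.11e-05), -0.49 ± 0.10 (adjusted p = 0.000438) and -0.45 ± 0.08 (adjusted p = 0.000265). Plcg1 also fell with age on each restricted diet (-0.39 with Low Amino Acid, -0.40 with Low Isoleucine), and Gab1 on Low Amino Acid (-0.38). The call for Gab1 on Low Amino Acid was lost in 9 of the 46 fits that leave out a liver and without the livers high in inflammatory lists (-0.33, adjusted p = 0.179). Sos1 was higher on Low Isoleucine than on Control at 24 months (0.41 ± 0.08, SE, adjusted p = 0.00279). In the remaining comparisons 0 of 13 passed.

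In the bile acid pathway that FGFR4 and beta-Klotho restrain, 4 of 10 genes fell with age on Control, where 28% of all genes were called. The list's median was -0.22 against 0.03 over all genes. The 3 largest falls were those of Cyp8b1, which sets the share of cholic acid (-0.89 ± 0.29, SE, adjusted p = 0.0211), Slc10a1, the bile acid importer (-0.76 ± 0.15, SE, adjusted p = 0.000390), and Cyp27a1, of the alternative route of synthesis (-0.61 ± 0.13, SE, adjusted p = 0.00105). Without the livers high in inflammatory lists 3 fell, against 876 of all 12642 genes, and Cyp8b1 was at -0.44 (adjusted p = 0.202). It was also lost without replicate 4 of the young controls (adjusted p = 0.0582). Cyp8b1 alone passed on Low Isoleucine at 24 months, where 6.48% of all genes were called. It was 1.02 ± 0.29 higher than on Control (SE, adjusted p = 0.0293), and at 0.57 (adjusted p = 0.145) without those livers. That call was also lost without replicate 4 or 5 of the controls or replicate 6 of the Low Isoleucine group. On Low Amino Acid at 24 months 1 of 10, Nr5a2, a nuclear receptor that drives these enzymes, was higher (0.40 ± 0.09, SE, adjusted p = 0.0275). That comparison called 0.745% of all genes. Nr5a2 was at 0.32 (adjusted p = 0.0747) without the livers high in inflammatory lists, and lost its call in 5 of the 46 fits that leave out a liver. Between the restricted diets at 24 months Cyp27a1 was higher with Low Isoleucine (0.63 ± 0.14, SE, adjusted p = 0.0137) and fell with age on Low Amino Acid (-0.63 ± 0.14, SE, adjusted p = 0.0125), where it missed the threshold without the livers high in inflammatory lists (-0.60, adjusted p = 0.0595). Slc10a1 fell with age on Low Isoleucine (-0.49 ± 0.15, SE, adjusted p = 0.0387), a call lost in 8 of the 46 fits that leave out a liver. At 6 months 0 of 10 passed on either diet. Of the other FGF ligands, co-receptors and decoys, 5 of 13 passed the filter and 0 changed in any comparison. Once the livers high in inflammatory lists were left out, 1 fell in each of 3 comparisons. These were with age on Control, with age on Low Isoleucine and on Low Isoleucine against Low Amino Acid at 24 months. There 876, 675 and 378 of all 12642 genes fell, in that order. The most abundant of these ligands, co-receptors and decoys was Fgf1, an autocrine growth factor, at 250 ± 63.6 CPM in 6-month controls (SD, n = 8).

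Within groups, Fgfr3 and Fgfr4 were the only pair of the 6 genes whose levels went together past the test. Over the 46 livers, with each group centred on its mean, log2 CPM of the pair correlated at r = 0.57 (adjusted p = 0.000600) and rho = 0.57 (adjusted p = 0.00135; permutation within groups, two-sided, adjusted over 15 pairs). It was 0.54 without the 2 livers farthest from the median of Fgfr3 and 0.65 without the aged controls (n = 38). Fgf21 correlated with Klb at r = 0.31 (adjusted p = 0.275) and rho = 0.27, and with Fgfr4 at r = 0.36 (adjusted p = 0.139) and rho = 0.28, neither past the test. Fgfr1 and Fgfr4 were at r = 0.25 (adjusted p = 0.368) and rho = 0.35 (adjusted p = 0.163), and at r = 0.45 without the aged controls, which passed (adjusted p = 0.0295). The livers share a table and a scaling, and Kupffer and neutrophil genes also vary between them.

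Some genes followed Fgf21 from liver to liver. By Spearman rho of group-centred log2 CPM over 46 livers, out of 12616 genes, the closest were Inhbe at 0.75, Epha2 at 0.72, G0s2 at 0.71, Creb3l3 at 0.67 and Tbcc at 0.62. Inhbe encodes a liver-made subunit of activin E, G0s2 an inhibitor of adipose triglyceride lipase and Creb3l3 a fasting-responsive transcription factor. Inhbe, Epha2, G0s2 and Creb3l3 were also the closest 4 without the aged controls, at 0.69 to 0.75 (n = 38), whereas Tbcc fell to rank 69. Asns and Chac1, 2 of the 14 ATF4 targets listed, had rho of 0.08 and 0.03 with Fgf21, and Gdf15, another hormone of that response, 0.58. The 14 ran from -0.33 for Stc2 to that value, with Atf5 at 0.46, Ddit3 at 0.39 and Cth at -0.28. Among the 11 measured PPARalpha targets rho was highest for Plin2 (0.59), Angptl4 (0.58) and Pdk4 (0.53), and lowest for Cyp4a14 (0.02). The closest to Klb were Tmem183a (0.75), Acad8 (0.74) and Ocln (0.73), and to Fgfr1 Mef2d (0.66), Adgrl1 (0.65) and Dvl2 (0.64). They were Txlng, Zcwpw2 and Upf2 for Fgfr2 (0.59 to 0.60), Cfap410, Bahcc1 and Maz for Fgfr3 (0.65 to 0.67) and, among the closest for Fgfr4, Zfhx3 and Zdhhc18 (0.75 and 0.74). These are descriptions of 46 livers that share one scaling.

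Males can be read only from the authors' deposited table of log2 fold changes, since their count columns are not aligned with the gene names. The sources used here do not say which male livers entered it, and its directions could not be checked against counts. In males on Low Amino Acid at 6 months, Fgf21 was at -1.56 in the authors' deposited table (adjusted p = 0.202), and on Low Isoleucine at -1.09 (adjusted p = 0.425). At 24 months the authors' deposited table has Fgf21 in males at 1.15 (adjusted p = 0.535) and 1.63 (adjusted p = 0.356) on these diets. Between the ages on Control it was -1.47 in males (adjusted p = 0.156), again in the authors' deposited table. The male values thus pointed down in the young and up in the old, and none passed. From the authors' deposited table the change in diet effect between the ages was 2.71 ± 1.13 for Low Amino Acid (SE, unadjusted p = 0.0213, adjusted p = 0.137) and 2.72 ± 1.17 for Low Isoleucine (SE, unadjusted p = 0.0258, adjusted p = 0.136). Both share the male controls. In females the authors' deposited table gives Fgf21 at -0.07 and -0.30 at 6 months and at -0.45 and 0.25 at 24 months, on Low Amino Acid and Low Isoleucine in turn.

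Klb was called in females and not in males. In the authors' deposited table female Klb was at -0.43 between the ages on Control (adjusted p = 0.0115). There it was at 0.51 on Low Amino Acid (adjusted p = 0.0350) and 0.42 on Low Isoleucine (adjusted p = 0.0467) against aged controls, per the authors' deposited table. Aged Low Amino Acid replicates 2 and 4 and aged Low Isoleucine replicates 2 and 5, below their group medians of Klb, carry no weight in these 2 values. With all 46 livers, edgeR gave 0.37 (adjusted p = 0.153) and 0.34 (adjusted p = 0.110), neither past the test. Male Klb stood at 0.33 between the ages on Control (adjusted p = 0.0801) and at -0.24 and 0.08 on the diets at 24 months in the authors' deposited table. The signs on Control were opposite in the sexes. The difference between the sexes was not tested, since the tables were made separately.

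Fgfr4 was called in males on Low Amino Acid at 6 months, at -0.52 in the authors' deposited table (adjusted p = 0.0120), and was at -0.29 on Low Isoleucine (adjusted p = 0.228). Fgfr2 was called in males between the ages on Low Isoleucine, at 0.52 in the authors' deposited table (adjusted p = 0.0256). The header of that comparison names no ages. It was read as 24 against 6 months because, in all 17757 genes of the authors' deposited table, its value equals the age change on Control plus the Low Isoleucine effect at 24 months minus that at 6 months (within 1e-06), as it does in all 17192 genes of the female table. The Low Isoleucine effect on male Fgfr2 went from -0.35 at 6 months to 0.41 at 24 months in the authors' deposited table. That change of 0.76 ± 0.19 passed (SE, adjusted p = 0.00970, a contrast computed from the authors' deposited table) in a test that called 8.96% of 17757 genes. The same contrast for Low Amino Acid, with 8.18% of genes called, was 0.46 ± 0.18 for Fgfr2 (SE, adjusted p = 0.117, from the authors' deposited table), and 0 of the 6 genes passed.

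Counts of called genes in the authors' deposited table differ by comparison. In males 1 of 6 passed on Low Amino Acid at 6 months (16.3% called), 0 of 6 on Low Isoleucine (21.1% called), 0 of 6 on either diet at 24 months (0.0563% and 0.0676% called), 0 of 6 between the ages on Control (20% called) and 1 of 6 on Low Isoleucine (7.08% called). In females the authors' deposited table has 0 of 6 at 6 months (0.0116% called with Low Amino Acid, 0.0931% with Low Isoleucine). At 24 months it has 1 of 6 on each diet (5.53% and 9.24% called), and between the ages 1 of 6 on Control (23.5% called) and 0 of 6 on Low Isoleucine (0.739% called).

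**Figure D5:**
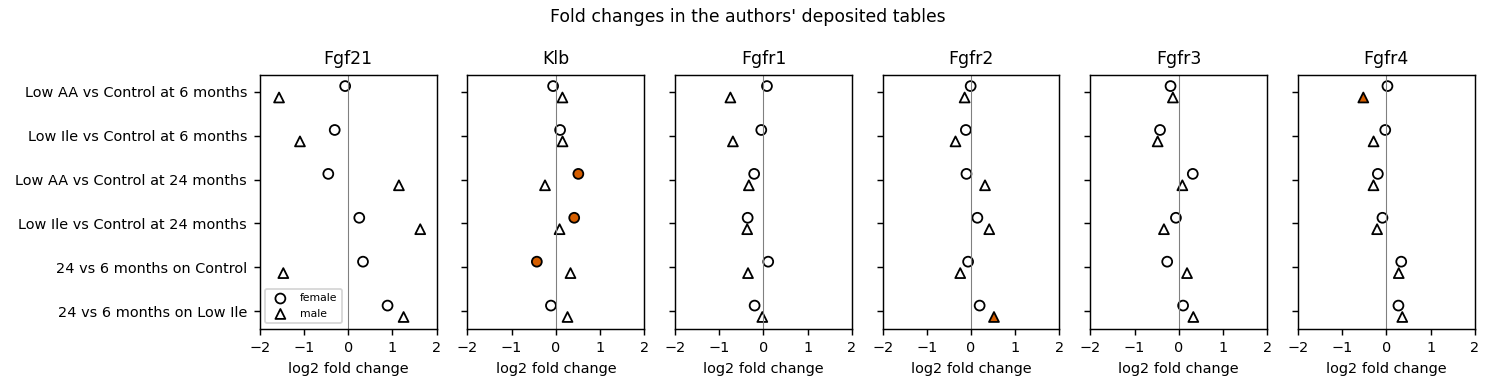
Log2 fold changes of the 6 genes in the authors' deposited tables, circles for females and triangles for males, in orange where the deposited adjusted p is under 0.05. Fgf21 in males lies at -1.56 and -1.09 on the diets at 6 months and at 1.15 and 1.63 at 24 months, none of them orange.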

How the data were processed

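Mouse liver RNA was sequenced in 92 libraries, labelled as 47 female and 45 male. The authors deposited RSEM estimated counts per gene and tables of log2 fold changes with p-values and adjusted p-values for each sex, per the file headers. The submitters' processing notes name GRCm38.p5, R 3.4.3, edgeR and limma. The sources used here name no aligner. Of 51912 lines of the count table, 17275 are filled under every column and were used. Male columns are not aligned with the gene names and were not used. Groups come from the sample titles.

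Estimated counts were rounded, filtered with filterByExpr (12617 genes kept) and scaled by TMM, and all 46 female livers entered one edgeR 4.0.16 quasi-likelihood fit with 6 groups (R 4.3.3), with Benjamini-Hochberg adjustment over all genes and a threshold of 0.05. CPM use TMM library sizes, exon lengths are GENCODE M21, and list means use a prior count of 2. Tests of male differences between ages were built from the deposited log2 fold changes and p-values of the authors. DESeq2 1.42.0 and limma 3.58.1 (voom with quality weights) were alternatives, beside other size factors, no filter, fewer groups per fit, the library left out added back, libraries with the same title number summed, and each library left out in turn. Python 3.11.15, numpy 2.4.6, pandas 2.3.3 and scipy 1.17.1 did the rest, with 100000 permutations for each relation.

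On simulated data for Low Isoleucine against Control at 24 months (12558 genes), 42.6%, 80.3% and 96.7% of genes changed by 0.5, 1 and 2 on the log2 scale were recovered. For the Low Amino Acid diet at 6 months (12567 genes) the shares were 47.4%, 82.0% and 96.8%. False calls were 5 in the first and 4 in the second. The changed genes were drawn at random, each with its own spread. The shares therefore do not give the recovery for Fgf21, whose SE was 0.50 in both comparisons. Named genes are the 6 genes themselves and, in each list, up to 3 called genes per direction with the largest change. Others named were chosen after their values were seen, as was Fgf1. The genes and lists were chosen with earlier results of these data known. Some results that these rules would name are not reported here.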

Additional observations from a re-analysis of the deposited data

Results flagged for a closer look

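In the 6-month Low Isoleucine group, replicate 8 held 0.756 CPM of Fgf21, from 17 estimated counts, apart from the other 6 livers of its group (gap over range 0.713 against a critical value of 0.568). Of 36 groups of values tested this way, chance alone gives about 1 in 20. The same liver had 53.9 CPM of Inhbe and 151.5 CPM of Creb3l3, the lowest Creb3l3 of the 46 livers. The library left out of all comparisons, labelled female, held 47.9 CPM of the Y-linked gene Kdm5d, against at most 0.569 CPM in the other 46, with Fgf21 at 14.7 and Klb at 69.8 CPM. In males the Low Isoleucine effect on Fgfr2 differed between 24 and 6 months by 0.76 on the log2 scale (adjusted p = 0.00970), a contrast computed from the authors' deposited table.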

How the results depend on the processing

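Of 618 values of the 66 comparisons of the 6 genes under 10 alternatives, 594 kept their direction and their side of the threshold, as did 2963 of 3036 values with a library left out. Of the 10, 2 were chosen after seeing the data: leaving out libraries high in acute phase or neutrophil genes, and leaving out libraries without weight in the authors' female table. The Klb difference between the ages on Control lost its call when only the compared groups were fitted (-0.40, adjusted p = 0.0751), with title numbers summed (-0.42, adjusted p = 0.0670) and without the libraries high in acute phase or neutrophil genes (-0.19, adjusted p = 0.323). Klb at 24 months gained its calls without the libraries lacking weight (0.48 and 0.42), a fit that left out aged diet livers below their group medians of Klb. Fgfr3 gained calls under voom (-0.47 at 6 months, -0.43 between the restricted diets at 24 months).

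Voom reversed small differences: Fgfr4 on Low Amino Acid at 6 months (-0.0518), Fgf21 on Low Isoleucine at 6 months (-0.11), Fgfr4 between the diets at 6 months (0.0437), Fgfr1 between them at 24 months (-0.15), Fgfr1 with age on Control (-0.0561) and Low Isoleucine (-0.28), Fgf21 with age on Low Amino Acid (-0.20) and the age difference of the Low Isoleucine effect on Fgf21 (0.0571). Summing title numbers reversed Fgfr4 on Low Amino Acid (-0.0182) and Fgf21 on Low Isoleucine (-0.20) at 6 months, Fgfr3 on Low Isoleucine at 24 months (0.0606) and the age difference of that diet's effect on Fgfr4 (0.0720). Adding the left-out library reversed Fgfr4 on Low Isoleucine at 6 months (0.0380). Without the libraries lacking weight, Fgfr1 between the diets at 24 months (-0.13), Fgf21 with age on Low Amino Acid (-0.00095) and Fgfr1 with age on Low Isoleucine (-0.18) reversed, the last also without the libraries high in inflammatory genes (-0.0032). The relation of Fgf21 and Fgfr1 was -0.0872 without 2 livers, that of Klb and Fgfr4 -0.0572 and that of Fgfr1 and Fgfr4 0.45 without aged controls. The cause was not tested for any of these.

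With each library left out, Klb ran from -0.53 to -0.34 with age on Control, 0.31 to 0.51 and 0.28 to 0.47 on Low Amino Acid and Low Isoleucine at 24 months, -0.0327 to 0.10 with age on Low Amino Acid and -0.10 to 0.0339 between the diets at 24 months. Fgf21 ran from -0.23 to 0.22 with age on Low Amino Acid, -0.20 to 0.12 on Low Amino Acid and -0.0397 to 0.31 on Low Isoleucine at 6 months, -0.0032 to 0.35 between the diets then, -0.68 to 0.24 on Low Isoleucine at 24 months and -0.82 to 0.13 for the age difference of that effect. Fgfr1 ran from -0.20 to 0.0804 with age on Low Isoleucine, -0.0860 to 0.0509 on it at 6 months and -0.0470 to 0.29 between the diets at 24 months. Fgfr2 ran from -0.14 to 0.0554 with age on Control and -0.0592 to 0.0456 on Low Amino Acid at 6 months. Fgfr3 ran from -0.11 to 0.0630 on Low Isoleucine at 24 months and -0.51 to -0.33 between the diets then. Fgfr4 ran from -0.0569 to 0.14, -0.0803 to 0.0754 and -0.15 to 0.0528 at 6 months (Low Amino Acid, Low Isoleucine and between them), -0.14 to 0.0038 on Low Isoleucine and -0.0630 to 0.0897 between the diets at 24 months, and -0.16 to 0.0055 for the age difference of the Low Isoleucine effect.

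Counts of all genes called moved more. Over the alternatives they ran from 0 to 52, 0 to 72 and 0 to 201 at 6 months (Low Amino Acid, Low Isoleucine, between them), from 3 to 1473, 40 to 1771 and 16 to 832 at 24 months, from 2140 to 3880 on Control and 26 to 467 on Low Amino Acid between the ages, with up to 1579 on Low Isoleucine (fewest without the libraries lacking weight), and from 0 to 521 and 0 to 25 for the age differences of the diet effects. No paired analysis was possible because the labels give groups no shared replicate numbers. Fits to 1 age or to the compared groups could not be made for the age differences. Fgfr1, at 2.11 to 11.6 CPM, rests on the fewest counts per kilobase of the 6 genes.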
